A study of Mus musculus with 9 samples.

Results

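The citric acid cycle and its itaconate branch were followed through 9 genes, Acod1, Cs, Idh1, Idh2, Idh3a, Ogdh, Suclg1, Fh1 and Mdh2, in mouse bone-marrow-derived macrophages given an antibody against PD-L1. The genes were taken by symbol from all 9 libraries. They were 9 of 22376 gene symbols listed, and all 9 were among the 13741 genes that could be tested.

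The citric acid cycle oxidises acetyl-CoA in the mitochondrial matrix and passes the electrons to the respiratory chain. In macrophages activated through Toll-like receptors or interferons, aconitate decarboxylase 1, the product of Acod1 (also called Irg1), draws cis-aconitate out of the cycle and turns it into itaconate. Itaconate inhibits succinate dehydrogenase, modifies cysteines of proteins such as KEAP1, and is known for restraining inflammatory gene expression. Cs makes citrate, Idh3a encodes a subunit of the NAD-dependent isocitrate dehydrogenase of the cycle, Ogdh a subunit of the alpha-ketoglutarate dehydrogenase complex, Suclg1 a subunit of succinyl-CoA synthetase, Fh1 fumarase and Mdh2 the mitochondrial malate dehydrogenase. Idh2 and Idh1 are the NADP-dependent isocitrate dehydrogenases of mitochondria and cytosol.

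All cells came from tibia and femur marrow of healthy wild-type C57Bl/6 mice. The marrow was grown for 1 week with 10 ng/ml M-CSF, the growth factor that turns it into macrophages. The cells were washed free of M-CSF and plated at 50000 for 48 h. Libraries 1 to 3 were given 100 µg/ml PD-L1 antibody, libraries 4 to 6 were given 100 µg/ml isotype antibody, which has no intended target, and libraries 7 to 9 were left untreated. Whether the libraries of a group stem from different mice or dishes is not stated in the labels. The p-values thus reflect the spread among the libraries alone, and that spread may be technical. In a bulk culture fewer cells of a type and less RNA per cell cannot be told apart.

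The stretches before the start sites of the member that differed most (Acod1), of the cycle gene that rose most (Mdh2) and of the gene that fell most (Idh1) are shown, because these genes went furthest apart under the PD-L1 antibody. Each is the 250 bases before the RefSeq start in GRCm38.p6, 5′ to 3′ on the gene's strand, with matches to the motifs searched in capitals. The windows are chr14:103046762-103047011 on the plus strand for Acod1, chr5:135778399-135778648 on the plus strand for Mdh2 and chr1:65179143-65179392 on the minus strand for Idh1.
Acod1: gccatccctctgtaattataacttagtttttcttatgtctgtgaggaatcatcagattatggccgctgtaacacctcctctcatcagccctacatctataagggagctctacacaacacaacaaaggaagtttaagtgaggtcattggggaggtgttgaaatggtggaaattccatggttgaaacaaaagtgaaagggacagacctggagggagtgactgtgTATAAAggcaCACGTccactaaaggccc
Mdh2: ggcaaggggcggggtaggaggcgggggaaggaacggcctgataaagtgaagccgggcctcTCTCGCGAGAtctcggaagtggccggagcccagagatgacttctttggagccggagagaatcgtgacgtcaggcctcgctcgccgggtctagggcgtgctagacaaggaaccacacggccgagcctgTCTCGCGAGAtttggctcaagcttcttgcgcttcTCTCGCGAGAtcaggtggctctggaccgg
Idh1: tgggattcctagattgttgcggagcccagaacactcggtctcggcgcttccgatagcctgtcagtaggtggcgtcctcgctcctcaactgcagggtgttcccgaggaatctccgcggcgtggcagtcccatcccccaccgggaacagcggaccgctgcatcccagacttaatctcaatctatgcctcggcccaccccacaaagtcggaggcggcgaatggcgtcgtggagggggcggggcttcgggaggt
The Acod1 window held a TATAAA whose first base lay at -28 from the start and, at -18, a CACGT, which is the hypoxia response core ACGTG read on the other strand. Of 32851 windows of the same length in the RefSeq table, 12.4% held TATAAA and 16.6% held ACGTG on either strand. The Mdh2 window held 3 copies of the palindrome TCTCGCGAGA, which reads the same on both strands, at -190, -63 and -29, and 0.39% of all windows held at least 1. The Idh1 window held none of the 10 motifs searched.

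The other motifs, each searched on both strands, were the NF-kB site (in 5% of all windows), the interferon-stimulated response element core, GAAA and GAAA with any 2 bases between them (2.98%), the STAT site TTCNNNGAA (7.02%), the ETS core CCGGAAG (6.91%), the E-box CACGTG, which contains ACGTG (6.02%), the estrogen-related receptor core AAGGTCA (4.08%) and the NRF1 core, GCGC and GCGC with any 2 bases between them (4.98%). Among the remaining members with an entry, Idh2 had an NF-kB pattern at -159 and Ogdh a CACGT at -45, at the starts of the transcripts used, and Cs, Suclg1 and Fh1 had no match. Idh3a had no entry in the table. TATAAA and TCTCGCGAGA, the longest palindrome found 3 times in the Mdh2 window, were added after the sequences had been seen, and a match describes letters, not binding.

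The transcripts measured lie, on GRCm38, at chr14:103047012-103056573 (plus strand) for Acod1, chr10:128337727-128362482 (plus) for Cs, chr1:65158616-65179142 (minus) for Idh1, chr7:80094847-80115350 (minus) for Idh2 and chr9:54586511-54604662 (plus) for Idh3a. Ogdh lies at chr11:6291597-6359094 (plus), Suclg1 at chr6:73248505-73276907 (plus), Fh1 at chr1:175601378-175625635 (minus) and Mdh2 at chr5:135778649-135790386 (plus). The span of Fh1 overlaps that of Kmo on the other strand, without any shared exonic base. The thinnest values were those of Idh3a, with 353 to 669 exonic reads per library, followed by Idh2, with 438 to 1196.

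Exonic read equivalents per library ran from 23554320 (untreated 7) to 40116467 (untreated 9). Levels are given as CPM, counted per 1000000 TMM-scaled exonic reads. Fold changes are stated as log2 differences of CPM + 1, a scale that understates the change of low genes. The first principal component over all tested genes held 72.03% of the variance and set the PD-L1 antibody libraries (46.35 to 49.52) apart from the other 6 (-30.93 to -19.83). On the second component, with 12.29%, untreated 8 and 9 lay at 22.77 and 22.51, but untreated 7 lay at -15.81, among the isotype libraries (-18.68 to -3.23). Untreated 7 therefore stands apart from its group, and some of the results that rest on it are given with and without it. Cd274, which encodes PD-L1, had 668, 752.4 and 566.6 CPM in PD-L1 antibody libraries, against 266, 178.1 and 235.4 CPM in isotype libraries and 215.3, 201.6 and 246.4 CPM in untreated libraries. The antibody is directed at the protein, so these values do not check the labels.

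Across the 9 genes, the PD-L1 antibody went with one very large rise and several small changes in both directions. Against the isotype antibody, limma with Benjamini-Hochberg adjustment called 6 of the 9 genes at an adjusted p under 0.05, where 36.4% of all tested genes were called. Acod1, Mdh2, Idh3a and Cs rose, where 18.2% of all tested genes rose, and Idh1 and Idh2 fell, where 18.2% fell. Ogdh, Suclg1 and Fh1 did not pass. With scaling by total counts, which moves the median of all genes by -0.14 on the log2 scale, 1565 genes rose and 4143 fell, against 2495 and 2501 with TMM, and 2 of the 9 genes (Acod1 and Mdh2) rose. The libraries of the groups did not overlap for 8 of the 9 genes, all but Suclg1, a pattern that 52.1% of all tested genes showed. The median log2 fold change of the 9 was 0.21, against -0.01 over all tested genes.

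Against untreated cells, 8 of the 9 genes were called, where 42.4% of all tested genes were. Acod1, Mdh2, Cs, Idh3a and Ogdh rose (22.0% of all tested genes rose), Idh1, Idh2 and Fh1 fell (20.5% fell), and Suclg1 did not pass. The median log2 fold change of the 9 was 0.32, against -0.01 over all tested genes, and 7 of the 9, all but Suclg1 and Fh1, had groups without overlap, where 51.2% of all tested genes did. Both comparisons use the same PD-L1 antibody libraries.

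**Figure D1:**
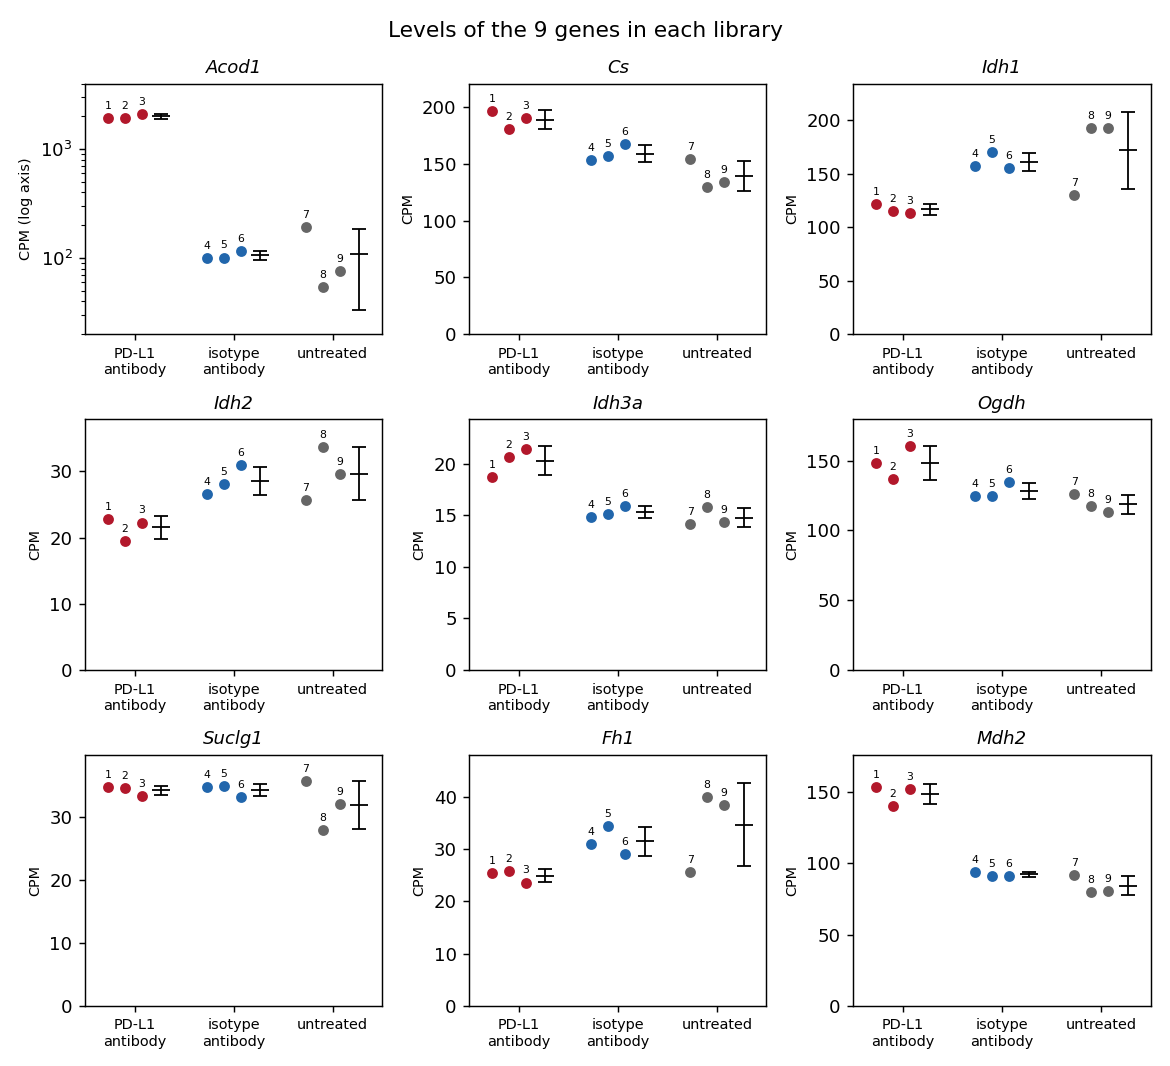
Level of each gene in CPM (log axis for Acod1, linear from 0 for the others) in PD-L1 antibody (red), isotype antibody (blue) and untreated (grey) libraries, with points labelled by library number and bars for mean ± SD, n = 3. Acod1 lay between 1939 and 2116 CPM in PD-L1 antibody libraries and between 54.59 and 194 CPM in the other 6, and untreated 7 stood apart from untreated 8 and 9 for Acod1, Idh1 and Fh1.

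Acod1, the itaconate-forming enzyme, had 1939, 1944 and 2116 CPM in PD-L1 antibody libraries 1 to 3, against 99.69, 101.1 and 116.4 CPM in isotype libraries 4 to 6 and 194, 54.59 and 76.6 CPM in untreated libraries 7 to 9. Every PD-L1 antibody library was far above every other library, and untreated 7 was the highest of the remaining 6. The means were 2000 ± 101 CPM under PD-L1 antibody, 106 ± 9.27 CPM under isotype antibody and 108 ± 74.9 CPM in untreated cells (SD, n = 3 each). The log2 fold change was 4.23 (SE 0.34, adjusted p = 3.77e-06, limma) against the isotype antibody, a fold of 18.8, and 4.40 (SE 0.34, adjusted p = 2.88e-06) against untreated cells, a fold of 21.2. Without untreated 7 the second value was 4.92. By log2 fold change Acod1 ranked 18th from the top of 13741 genes against the isotype antibody and 14th against untreated cells.

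These Acod1 values rest on 1621 to 69390 exonic reads per library from transcript NM_008392. Its exons took 83.74 to 87.78% of the reads over the gene's whole span, with the highest shares in untreated 8 and 9 (87.78 and 87.25%). At least 1 read covered every exonic base in every library. The share of exonic bases covered at least 100 times ran from 41.27 to 99.77%.

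Cs, citrate synthase at the entry of the cycle, had 196.4, 180.3 and 190 CPM under PD-L1 antibody, against 153, 156.6 and 167.5 CPM under isotype antibody and 154.2, 129.3 and 133.6 CPM in untreated cells. The PD-L1 antibody libraries were the 3 highest of the 9, by a small margin over isotype 6. The log2 fold change was 0.25 (SE 0.08, adjusted p = 0.039, limma) against the isotype antibody and 0.44 (adjusted p = 0.00154) against untreated cells. The call against the isotype antibody was lost in 12 of 24 alternative settings, and over all 24 the difference ran from 0.07 to 0.29. Among the 12 were the fits without PD-L1 antibody 1, 2 or 3 (0.22, 0.28 and 0.24), without isotype 4 or 5 (0.22 and 0.23) and without untreated 9 (0.25). Against untreated cells the call was kept in all 24.

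Idh3a, a subunit of the NAD-dependent enzyme that makes alpha-ketoglutarate within the cycle, had 18.69, 20.68 and 21.43 CPM under PD-L1 antibody, against 14.86, 15.08 and 15.92 CPM under isotype antibody and 14.1, 15.8 and 14.37 CPM in untreated cells. The isotype and untreated ranges overlapped, and all 3 PD-L1 antibody libraries lay above both. The differences were 0.38 (SE 0.10, adjusted p = 0.00871, limma) and 0.43 (adjusted p = 0.00392) on the log2 scale. Total-count scaling ended the first call, with 0.22 and an adjusted p of 0.0876.

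The NADP-dependent isocitrate dehydrogenases went the other way. Idh1, the cytosolic enzyme, had 122.2, 114.9 and 113 CPM under PD-L1 antibody, against 157, 170.9 and 155.3 CPM under isotype antibody and 130.1, 192.6 and 193.4 CPM in untreated cells. All PD-L1 antibody libraries were below all others, and untreated 7 was the nearest to them. Idh1 fell by 0.46 on the log2 scale against the isotype antibody (SE 0.13, adjusted p = 0.0189, limma) and by 0.53 against untreated cells (adjusted p = 0.0079). Without untreated 7 the change against untreated cells was -0.72. The call against the isotype antibody was lost without PD-L1 antibody 2 (-0.45), PD-L1 antibody 3 (-0.44) or isotype 5 (-0.42), each with an adjusted p between 0.0593 and 0.0727.

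Idh2, the mitochondrial NADP-dependent enzyme, had 22.82, 19.53 and 22.27 CPM under PD-L1 antibody, against 26.62, 28.09 and 30.9 CPM under isotype antibody and 25.73, 33.69 and 29.57 CPM in untreated cells. The groups that did not get the PD-L1 antibody overlapped each other and lay wholly above it. Idh2 fell by 0.39 on the log2 scale against the isotype antibody (SE 0.11, adjusted p = 0.0187, limma) and by 0.44 against untreated cells (adjusted p = 0.00912). Leaving out PD-L1 antibody 2 (-0.32, adjusted p = 0.0795) or isotype 6 (-0.33, adjusted p = 0.0715) ended the first call.

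Ogdh, of the alpha-ketoglutarate dehydrogenase complex, had 148, 136.5 and 160.7 CPM under PD-L1 antibody, against 124.9, 124.5 and 134.7 CPM under isotype antibody and 126.2, 117.3 and 112.8 CPM in untreated cells. PD-L1 antibody 2 lay just above isotype 6, and the groups did not overlap. The difference from the isotype antibody was 0.21 (SE 0.08, adjusted p = 0.0688, limma), which did not pass, and Ogdh rose by 0.32 against untreated cells (adjusted p = 0.00952). The difference from the isotype antibody passed in 4 of 24 alternative settings. Among these were the fits without PD-L1 antibody 2 (0.27, adjusted p = 0.0457) and without untreated 7 (0.21, adjusted p = 0.0361).

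Suclg1, of succinyl-CoA synthetase, had 34.8, 34.57 and 33.44 CPM under PD-L1 antibody, against 34.86, 34.95 and 33.24 CPM under isotype antibody and 35.73, 28.02 and 32.16 CPM in untreated cells. The PD-L1 antibody and isotype libraries shared 1 narrow range. The log2 difference from the isotype antibody had a 95% interval of -0.21 to 0.20, and that from untreated cells one of -0.10 to 0.31 (adjusted p = 0.982 and 0.401, limma).

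Fh1, fumarase, had 25.37, 25.93 and 23.63 CPM under PD-L1 antibody, against 31.03, 34.53 and 29.07 CPM under isotype antibody and 25.56, 40.08 and 38.54 CPM in untreated cells. Untreated 7 lay within the PD-L1 antibody range, and untreated 8 and 9 were the highest of all. The difference from the isotype antibody was -0.32 (SE 0.15, adjusted p = 0.115, limma) and did not pass, and Fh1 fell by 0.43 against untreated cells (adjusted p = 0.0358). Without untreated 7 both passed, at -0.33 (adjusted p = 0.00735) and -0.64 (adjusted p = 0.000149). The difference from the isotype antibody passed in 3 of 24 alternative settings, with values of -0.49 to -0.26 over all 24. Conversely, the call against untreated cells was lost in 8 of the 24. Among these were the fits without PD-L1 antibody 1 (-0.45), 2 (-0.46) or 3 (-0.40), and without untreated 8 (-0.32) or 9 (-0.35).

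Mdh2, which regenerates oxaloacetate from malate, had 153.7, 140.7 and 152.4 CPM under PD-L1 antibody, against 94.31, 91.26 and 91.52 CPM under isotype antibody and 91.9, 79.85 and 80.96 CPM in untreated cells. Its libraries were tight within each group. The PD-L1 antibody libraries lay far above all others, and the isotype and untreated ranges overlapped. Mdh2 rose by 0.68 against the isotype antibody (SE 0.08, adjusted p = 5.1e-05, limma) and by 0.82 against untreated cells (adjusted p = 1.34e-05). It ranked 1037th and 900th by fold among the 13741 genes. As for Acod1, both calls were kept in all 24 alternative settings, with values of 0.51 to 0.72 and 0.67 to 0.88.

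**Figure D2:**
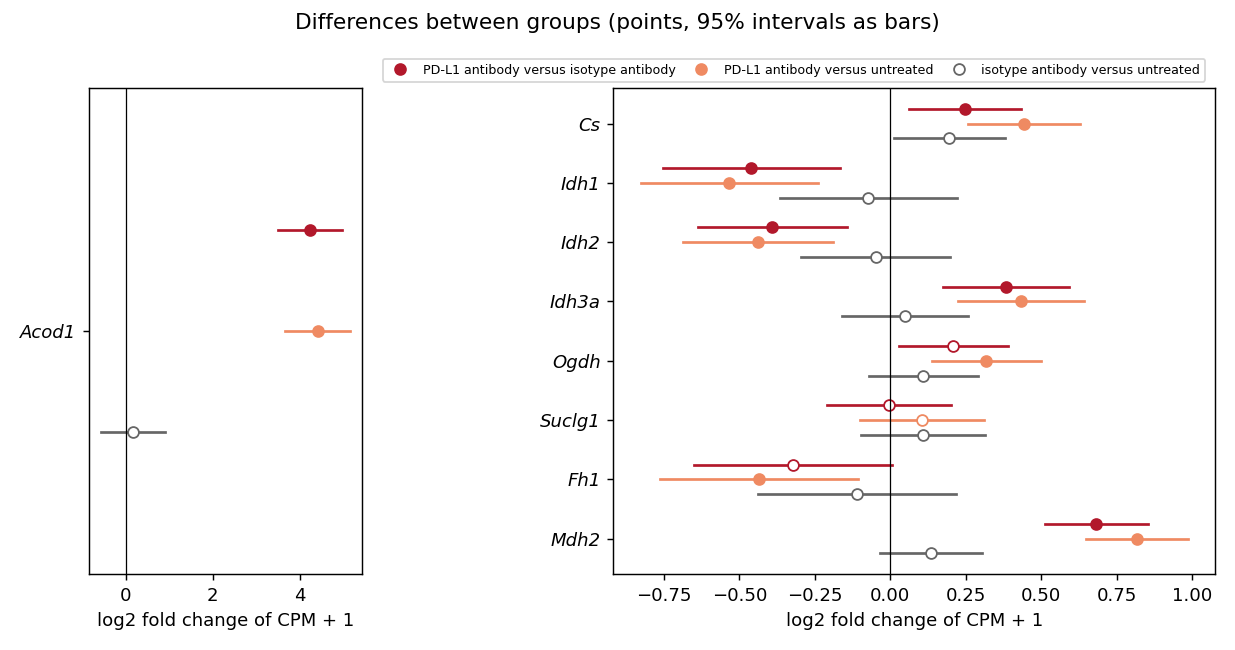
Log2 fold change of CPM + 1 for each gene in the 3 comparisons, with 95% intervals from limma as bars; filled points passed an adjusted p of 0.05 and open points did not. Acod1, on its own axis, was at 4.23 and 4.40 in the PD-L1 antibody comparisons, Mdh2, Cs and Idh3a lay right of 0 and Idh1 and Idh2 left of it, and no point of the isotype antibody versus untreated cells was filled.

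The isotype antibody itself, compared with no antibody, went with no call among the 9 genes by limma, and 0.00728% of all tested genes (1 gene, Fosb) were called. At an unadjusted p under 0.05 there were 1748 genes, with Cs the only one of the 9 among them. The groups overlapped for all 9 members, whose median log2 fold change was 0.11, where 13.1% of all tested genes had no overlap. By edgeR and DESeq2 on exonic reads none of the 9 was called either. Acod1 differed by 0.17 (adjusted p = 0.848) and Mdh2 by 0.13 (adjusted p = 0.472). The comparison turned on untreated 7. Without it 2295 genes were called, 1337 higher and 958 lower under the isotype antibody, among them 4 of the 9: Acod1 (0.70, adjusted p = 0.00451) and Cs (0.27, adjusted p = 0.0236) were higher, and Idh1 (-0.26, adjusted p = 0.0285) and Fh1 (-0.31, adjusted p = 0.0397) were lower. That fit has 2 untreated libraries, which lay close to each other. The share of all tested genes called in it is not reported here, so the 4 of the 9 are not read as particular to these genes.

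Levels were also put per kilobase of exon, so that the genes can be set beside each other. In PD-L1 antibody libraries the order of mean levels ran from Acod1 (772.7 ± 38.9 CPM per kb) through Mdh2 (116), Cs (64.3), Idh1 (51.6), Suclg1 (24.6), Ogdh (22.2), Fh1 (15.3) and Idh2 (12.7) to Idh3a (8.43), and no neighbours overlapped. In isotype libraries it ran from Mdh2 (72.0) and Idh1 (71.2), which overlapped, through Cs (54.2), Acod1 (40.9), Suclg1 (24.7), Fh1 (19.3) and Ogdh (19.1), which also overlapped, and Idh2 (16.8) to Idh3a (6.36). In untreated libraries Idh1 (76.0) came first, then Mdh2 (65.7), Cs (47.3), Acod1 (41.9 ± 29.0), Suclg1 (23.0), Fh1 (21.3), Ogdh (17.8), Idh2 (17.4) and Idh3a (6.14). There every neighbour pair overlapped except Mdh2 with Cs and Idh2 with Idh3a. Among all 13741 genes Acod1 stood 61st by mean level per kb under PD-L1 antibody, 1844th under isotype antibody and 1863rd in untreated cells. Its untreated mean was raised by untreated 7, with 74.96 CPM per kb against 21.09 and 29.6 in untreated 8 and 9. The untreated rank and order without untreated 7 were not computed.

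**Figure D3:**
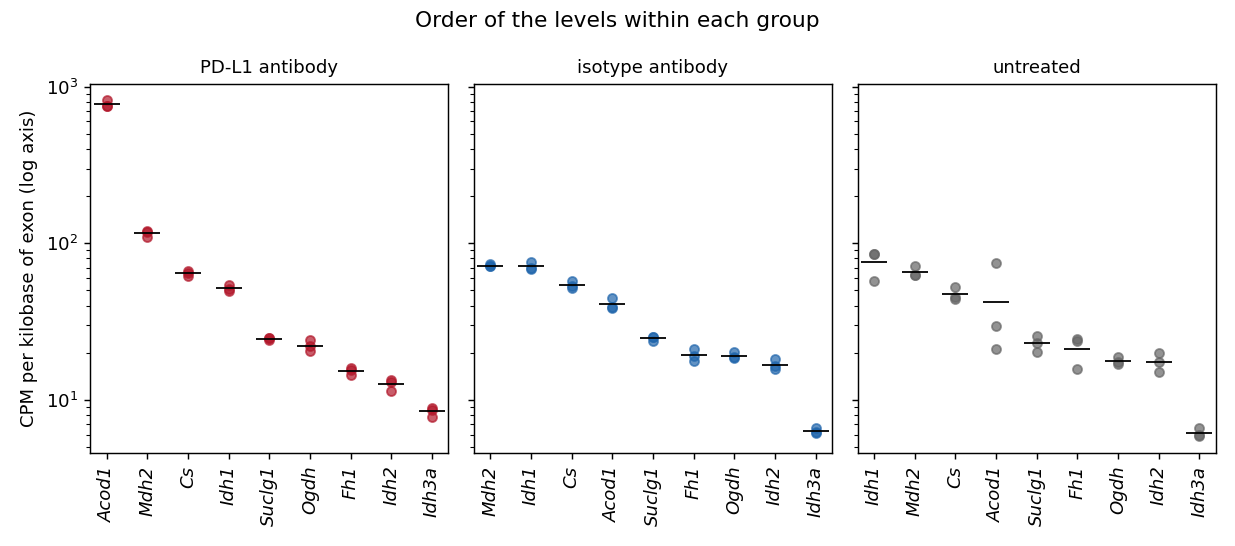
Levels of the 9 genes in CPM per kilobase of exon on a log axis, ordered by mean within each group, with points for libraries and bars for means. Acod1 led the PD-L1 antibody group at 772.7 CPM per kb and held place 4 in the isotype and untreated groups, and Idh3a was lowest in each group.

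The balance within the set followed from these levels and is described without a test. Acod1 made up 69.77, 71.25 and 71.99% of the summed per-kb level of the 9 genes in PD-L1 antibody libraries, against 12.11, 11.96 and 13.69% in isotype libraries and 22.19, 7.005 and 9.528% in untreated libraries. The 8 other genes together had 324.6, 303.1 and 318 CPM per kb under PD-L1 antibody, against 279.6, 287.7 and 283.7 under isotype antibody and 262.9, 280 and 281 in untreated cells. Their sum thus moved far less than Acod1 did. Mdh2 had 2.22, 2.16 and 2.38 times the per-kb level of Idh1 under PD-L1 antibody, against 1.06, 0.943 and 1.04 times under isotype antibody and 1.25, 0.732 and 0.739 times in untreated cells. Of the summed Idh1, Idh2 and Idh3a level, Idh1 took 71.83, 71.66 and 69.42% under PD-L1 antibody, against 76.07, 76.83 and 73.47% under isotype antibody and 73.26, 76.35 and 78.54% in untreated cells.

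The rest of the pathway was followed through 11 lists, with 102 of 107 genes tested, and read against the 18.2% of all tested genes that rose and the 18.2% that fell against the isotype antibody. List counts against untreated cells are read against the 22.0% of all tested genes that rose and the 20.5% that fell in that comparison. Of 12 further cycle enzymes 3 rose (Sdhb and Sdhd among them), 2 fell (Suclg2 and Idh3g) and 7 did not pass, with a median log2 fold change of 0.10. Idh3g, a regulatory subunit of the enzyme of Idh3a, moved opposite to it, with 43.05, 41.62 and 40.67 CPM under PD-L1 antibody, against 55.66, 54.63 and 51.81 CPM under isotype antibody and 49.66, 57.72 and 53.7 CPM in untreated cells (-0.36, adjusted p = 0.0041, limma).

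Suclg2, the GTP-forming partner subunit of Suclg1, fell to 8.15, 7.58 and 7.13 CPM under PD-L1 antibody, against 12.23, 11.81 and 12.26 CPM under isotype antibody (-0.61, adjusted p = 0.00565, limma). Sdhb, the iron-sulfur subunit of succinate dehydrogenase, had 100.3, 92.12 and 88.59 CPM under PD-L1 antibody, against 72.63, 71.65 and 70.71 CPM under isotype antibody and 70.14, 85.12 and 92.97 CPM in untreated cells. Sdhb passed against the isotype antibody (0.38, adjusted p = 0.0121) but not against untreated cells (0.18, adjusted p = 0.161), whose range it overlapped. Its first call was lost without PD-L1 antibody 1 (0.33, adjusted p = 0.0553) and with total-count scaling (0.21, adjusted p = 0.0952). It was also lost in edgeR's test of the deposited read counts (0.32, adjusted p = 0.0561). Against untreated cells 2 of the 12 rose (Dlst among them) and 2 fell (Suclg2 and Idh3g), with a median of 0.09.

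Of 14 genes of pyruvate entry 2 rose and 3 fell, with a median of -0.03. Pdk1 and Pdk2 encode kinases that switch off pyruvate dehydrogenase, and they moved apart. Pdk1 had 53.59, 49.92 and 54.22 CPM under PD-L1 antibody, against 25.7, 27.75 and 28.47 CPM under isotype antibody (0.92, adjusted p = 5.02e-05, limma). Pdk2 had 6.75, 7.51 and 8.84 CPM under PD-L1 antibody, against 17.27, 15.83 and 13.34 CPM under isotype antibody (-0.92, adjusted p = 0.000354). Dlat, the acetyltransferase of the pyruvate dehydrogenase complex, rose by 0.40 (adjusted p = 0.00162). Pdp1, the phosphatase that reactivates the complex, fell by 0.58 (adjusted p = 0.0163), a call lost without PD-L1 antibody 3 (-0.39) or isotype 4 (-0.53). Against untreated cells 3 rose and 4 fell, with a median of 0.09.

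Of 7 tested genes of citrate export and NADPH supply 2 rose and 2 fell, with a median of 0.00 against the isotype antibody, and 2 rose and 1 fell against untreated cells, with a median of 0.06. Me1, the cytosolic malic enzyme, had 9.96, 11.27 and 11.42 CPM under PD-L1 antibody, against 2.83, 4.01 and 4.94 CPM under isotype antibody and 3.92, 2.13 and 2.26 CPM in untreated cells (1.29 against isotype, adjusted p = 0.000472, limma). Acly, which splits exported citrate into acetyl-CoA and oxaloacetate, rose by 0.21 (adjusted p = 0.0332). The Acly call was lost in 11 of 24 settings, among them the fits without any 1 of the PD-L1 antibody or isotype libraries (0.20 to 0.24). Acss1, a mitochondrial acetyl-CoA synthetase, fell by 0.39 (adjusted p = 0.0125), a call lost without PD-L1 antibody 1 (-0.34) or isotype 4 (-0.35). Aco1, the cytosolic aconitase, fell by 0.27 (adjusted p = 0.0175), a call lost without PD-L1 antibody 2 (-0.22) or isotype 5 or 6 (-0.26 and -0.24).

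Of 10 tested genes of glutamine and glutamate entry none rose and 3 fell (Slc1a5, Glud1 and Got1), with a median of -0.16. Glud1, glutamate dehydrogenase, had 247.3, 246.3 and 248.1 CPM under PD-L1 antibody, against 313, 338.7 and 339 CPM under isotype antibody and 302.6, 341.3 and 337 CPM in untreated cells (-0.42 against isotype, adjusted p = 0.00148, limma). Slc1a5, a glutamine transporter, fell by 0.69 (adjusted p = 0.00229). Got1, the cytosolic aspartate aminotransferase, fell by 0.37 (adjusted p = 0.0238), a call that ended when isotype 4 (-0.32), isotype 5 (-0.38) or PD-L1 antibody 3 (-0.28) was left out. Glul, glutamine synthetase, was at -0.50 and did not pass (adjusted p = 0.073), but passed without untreated 7 (adjusted p = 0.000958) and without untreated 8 (adjusted p = 0.0484). Against untreated cells 1 rose (Slc38a2) and 4 fell, with a median of -0.21.

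Of 6 tested mitochondrial carriers 3 rose and 1 fell in both PD-L1 antibody comparisons, with medians of 0.45 and 0.32. Slc25a12 and Slc25a13 encode the aspartate-glutamate carriers, and they moved in opposite directions. Slc25a12 had 65.93, 62.08 and 69.03 CPM under PD-L1 antibody, against 41.83, 39 and 41.78 CPM under isotype antibody (0.67, adjusted p = 0.000281, limma). Slc25a13 had 8.92, 7.80 and 9.26 CPM under PD-L1 antibody, against 15.27, 17.72 and 20.52 CPM under isotype antibody (-0.96, adjusted p = 0.000132). Slc25a22, a glutamate carrier, rose by 0.90 (adjusted p = 0.000466). Slc25a10, the dicarboxylate carrier, rose by 0.84 (adjusted p = 0.00184), and its rise of 0.49 against untreated cells was lost without PD-L1 antibody 1, 2 or 3 (0.52, 0.52 and 0.42) or without untreated 7 (0.32).

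Of 4 tested genes of itaconate and succinate transport, sensing and breakdown, 1 rose and 1 fell in both PD-L1 antibody comparisons, with medians of 0.04 and 0.04. Slc13a3, a plasma membrane carrier of dicarboxylates, had 75.01, 143.2 and 112.8 CPM under PD-L1 antibody, against 8.24, 7.07 and 8.09 CPM under isotype antibody and 12.42, 9.43 and 8.99 CPM in untreated cells. Every PD-L1 antibody library was far above the others, though they differed among themselves more than the Acod1 values did. The log2 fold change was 3.62 against the isotype antibody (SE 0.20, adjusted p = 2.9e-07, limma) and 3.27 against untreated cells. Abcg2, an exporter reported to carry itaconate, fell by 0.64 (adjusted p = 0.00107). Clybl, which takes part in the breakdown of itaconate's product citramalyl-CoA, was at 0.22 and Sugct, a CoA transferase, at -0.14, and neither passed (adjusted p = 0.232 and 0.594).

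Of 8 genes for proteins reported to be modified or bound by itaconate, 6 rose and 1 fell against the isotype antibody, with a median of 0.88. Against untreated cells 7 rose and 1 fell, with a median of 1.01. Most of the risers are glycolytic or inflammasome genes. Gapdh, the glycolytic glyceraldehyde phosphate dehydrogenase, with 651.6, 603.4 and 649.7 CPM under PD-L1 antibody, against 197.1, 180 and 213.6 CPM under isotype antibody, rose by 1.69 (adjusted p = 1.47e-07, limma). Ldha, lactate dehydrogenase A, rose by 1.55 (adjusted p = 1.47e-07) and Aldoa, aldolase A, by 1.20 (adjusted p = 5.02e-06). Gapdh and Ldha have near-identical processed copies in the mouse genome, and how the authors' counting treated shared reads is not given in the sources used here. Tfeb, a transcription factor of lysosomal genes, fell to 63.4, 61.47 and 73.39 CPM under PD-L1 antibody, against 127.8, 161.2 and 119.6 CPM under isotype antibody (-1.02, adjusted p = 3.97e-05).

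Of 10 genes of the itaconate response and NRF2 targets, 6 rose and 2 fell against the isotype antibody, with a median of 0.54, and 7 rose and 1 fell against untreated cells, with a median of 0.85. Hmox1, heme oxygenase 1, had 1118, 1338 and 1003 CPM under PD-L1 antibody, against 258.1, 262.2 and 260.1 CPM under isotype antibody and 258.3, 251.4 and 257.7 CPM in untreated cells (2.13 against isotype, adjusted p = 7.07e-08, limma). Slc7a11, the cystine transporter, rose by 2.04 (adjusted p = 0.000326). Nfkbiz, which encodes the NF-kB regulator that itaconate is reported to limit at the protein level, rose by 1.82 (adjusted p = 9.49e-06). Atf3, a stress transcription factor reported to be induced by itaconate derivatives, had 315.9, 349.1 and 258.4 CPM under PD-L1 antibody, against 502.4, 474.7 and 505.1 CPM under isotype antibody and 480.9, 462.4 and 469.2 CPM in untreated cells, and fell by 0.69 (adjusted p = 0.000393). The members of this list thus did not move in 1 direction.

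Of 12 genes known to act upstream of Acod1 transcription, 9 rose and 1 fell in both PD-L1 antibody comparisons, with medians of 0.56 and 0.53. Ifnb1, interferon beta, was low everywhere, with 2.08, 2.87 and 2.76 CPM under PD-L1 antibody, against 0.127, 0.0759 and 0.0546 CPM under isotype antibody and 0.154, 0.135 and 0 CPM in untreated cells (1.71 against isotype on the log2(CPM + 1) scale, adjusted p = 3.63e-06, limma). Tlr2, a Toll-like receptor for bacterial lipoproteins, rose by 1.53 (adjusted p = 6.94e-06). Myd88, an adaptor of Toll-like receptors, rose by 0.64 (adjusted p = 8.04e-05). Ticam1, the adaptor TRIF, fell by 0.33 (adjusted p = 0.011), and Rela and Tlr4 were at 0.05 and -0.13 and did not pass (adjusted p = 0.667 and 0.26). Irf1, an activator of Acod1, rose by 0.46 (adjusted p = 0.00122).

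Of 3 enzymes of hydroxyglutarate metabolism 1 rose, with a median of -0.18. Adhfe1 was near 1 CPM (0.924, 1.04 and 1.30 CPM under PD-L1 antibody, against 0.342, 0.521 and 0.413 CPM under isotype antibody). Its rise of 0.55 (adjusted p = 0.00586, limma) was lost in edgeR's test of the deposited read counts (0.00, adjusted p = 0.994). D2hgdh, which oxidises the D form, was at -0.18 and did not pass (adjusted p = 0.141). Against untreated cells 1 of the 3 rose, with a median of 0.02.

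Of 16 tested genes of mitochondrial biogenesis and content 5 rose and 2 fell against the isotype antibody, with a median of 0.17, and 3 rose and 2 fell against untreated cells, with a median of 0.11. Cycs, cytochrome c, had 105.1, 133.4 and 110.3 CPM under PD-L1 antibody, against 54.69, 43.83 and 56.94 CPM under isotype antibody and 51.03, 51.58 and 56.44 CPM in untreated cells (1.15 against isotype, adjusted p = 2.21e-05, limma). Ppargc1b, a coactivator of mitochondrial genes, rose by 0.78 (adjusted p = 0.00272). Hspa9, a mitochondrial chaperone, rose by 0.44 (adjusted p = 0.00424), a call lost with total-count scaling (0.27). Esrra, which encodes a nuclear receptor of mitochondrial genes, rose by 0.38 (adjusted p = 0.00737), but was at 0.15 against untreated cells and did not pass (adjusted p = 0.215). The Esrra call against the isotype antibody was lost with total-count scaling (0.21) and in edgeR's test of the deposited read counts (0.27). Tomm20 and Tfb2m, of protein import and mitochondrial transcription, fell by 0.40 and 0.39 (adjusted p = 0.0105 and 0.0195).

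In the comparison of the isotype antibody with untreated cells none of the 102 tested genes of these lists was called by limma, nor by edgeR or DESeq2 on exonic reads, and 15 had an unadjusted p under 0.05 in limma. Of all genes tested without untreated 7 (13741 with all libraries), 2295 were called, 1337 higher and 958 lower under the isotype antibody. In that fit 20 of the 102 were called, 12 higher and 8 lower. The share of all tested genes called in it is not reported here, so these counts are not read as particular to the lists. The 20 included 5 of the 10 genes of the itaconate response and NRF2 targets (Gclc, Nqo1, Slc7a11, Srxn1 and Txnrd1), all higher. Sdhb, which was lower, and Slc25a10 were also among the 20. Leaving out untreated 7 also moved the PD-L1 antibody comparison with untreated cells, where 60 of the 102 were called, against 57 with it. With untreated 7, 42.4% of all tested genes were called in that comparison, and the share without it is not reported here. Of the genes upstream of Acod1 8 then rose and 0 fell, and of the carriers 2 rose and 1 fell. The medians of citrate export and of itaconate and succinate transport turned to -0.02 and -0.03.

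**Figure D4:**
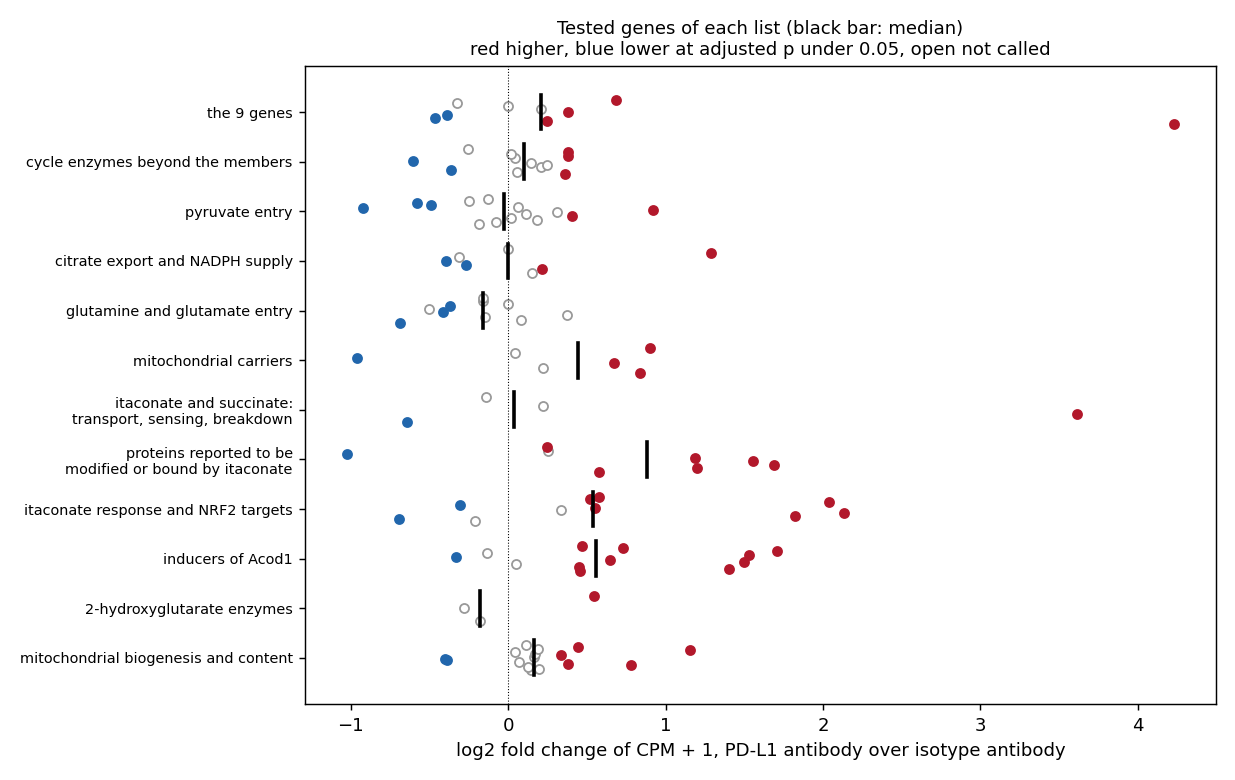
Log2 fold change of CPM + 1 in PD-L1 antibody over isotype antibody libraries for the 9 genes and each tested gene of the 11 lists, with points red where called higher, blue where called lower and open where not called, and a bar at each list's median. Acod1 at 4.23 and Slc13a3 at 3.62 lay furthest to the right, and the list medians ran from -0.18 to 0.88.

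The genes whose pattern was most like that of Acod1, by Pearson's r of log2(CPM + 1) over the 9 libraries among 9532 genes with a mean of at least 5 CPM, were Clec4e (r = 0.998), Slc7a2 (0.997), Ass1 (0.997), Parp3 (0.996) and Mfsd7a (0.995). These coefficients are descriptions, since the libraries share groups and a gene that differs between groups by a large step reaches a high r. Clec4e encodes the C-type lectin Mincle, Slc7a2 an arginine transporter and Ass1 argininosuccinate synthase. Slc7a2 had 206.1, 219.7 and 248.4 CPM under PD-L1 antibody, against 12.38, 10.87 and 13.37 CPM under isotype antibody and 19.58, 4.48 and 6.08 CPM in untreated cells. As with Acod1, untreated 7 was the highest of the libraries without PD-L1 antibody for Clec4e (123 CPM), Slc7a2 and Ass1 (36.11 CPM). For Cs the most alike were Txnrd1 (0.989), Cers6 (0.988), Baz1a (0.987), Nup205 (0.986) and Itgb2 (0.985), all with smaller differences between groups. Itgb2, the beta subunit of macrophage integrins, had 1154, 1034 and 1135 CPM under PD-L1 antibody, against 905.4, 973.7 and 1001 CPM under isotype antibody. That difference was 0.21 on the log2 scale and did not pass (adjusted p = 0.119, limma).

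All 8 macrophage markers were present in every library, with sums of 20800 to 24650 CPM under PD-L1 antibody, 18990 to 22480 CPM under isotype antibody and 16910 (untreated 7) to 22320 CPM in untreated cells. Lyz2 was the largest part of each sum (9884 to 15140 CPM), and single markers moved in both directions. Adgre1, Fcgr1 and Itgam were higher in every PD-L1 antibody library than in all others, Cd68 and Mrc1 were lower, and 3 overlapped. Neutrophils and monocytes can also express Acod1. The 12 neutrophil and granulocyte precursor markers summed to 363.9 to 509.5 CPM under PD-L1 antibody, against 687.9 to 1288 CPM under isotype antibody and 519.6 to 717.5 CPM in untreated cells. Of the 12, 6 (Mpo, Elane, Camp, Ngp, Ltf and Retnlg) were lower in every PD-L1 antibody library than in all other libraries and 6 overlapped. Such separation was common: 52.1% of all tested genes had no overlap with the isotype libraries and 51.2% none with the untreated libraries. The share of all tested genes apart from both groups at once was not computed. Among the overlapping ones was S100a8, with 76.42, 115.1 and 76.85 CPM under PD-L1 antibody, 161, 79.69 and 96.26 CPM under isotype antibody and 60.43, 92.28 and 78.11 CPM in untreated cells. Cxcr2 was higher under PD-L1 antibody (7.65, 11.2 and 6.99 CPM) than in untreated cells (5.13, 4.85 and 4.82 CPM) and overlapped the isotype libraries (8.59, 5.40 and 6.90 CPM). The 4 monocyte markers summed to 452.7 to 629.5 CPM under PD-L1 antibody, against 335.7 to 438 CPM under isotype antibody and 220.4 to 338.3 CPM in untreated cells. Vcan and Ly6c2 were higher in every PD-L1 antibody library than in all others, and Ccr2 was lower. The part of such cells in the Acod1 result was not tested.

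The 5 osteoclast markers summed to 85.35 to 92.16 CPM under PD-L1 antibody, against 52.06 to 59.29 CPM under isotype antibody and 55.75 to 57.01 CPM in untreated cells. That sum was carried by Acp5 alone, which was higher in every PD-L1 antibody library (61.95, 63.59 and 66.45 CPM) than in isotype (23.58, 20.41 and 17.03 CPM) and untreated libraries (20.98, 18.83 and 22.77 CPM). Dcstamp was lower in every PD-L1 antibody library, and the other 3 overlapped. Dendritic cell markers summed to 403.3 to 462 CPM under PD-L1 antibody, 318.9 to 536.6 CPM under isotype antibody and 270.4 to 519.6 CPM in untreated cells, with 2 of the 8 higher and 4 lower in every PD-L1 antibody library. These counts too stand beside the 52.1% and 51.2% of all tested genes without overlap in the PD-L1 antibody comparisons. Markers of mast cells and basophils, T and NK cells, B cells, erythroid cells and fibroblasts and stroma summed to at most 57.9 CPM in any library, and no marker was at 0 in all libraries.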

How the data were processed

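RNA of 9 samples, 3 per group, was captured by oligo(dT) and read in pairs of 150 bases on a HiSeq instrument, per the labels. The deposited names give lane 4 for PD-L1 antibody 2 and lane 1 for all other libraries. Partek and STAR are named in the submitters' processing notes without versions, and the genome build is not given in the sources used here; 99.1% of symbols found in GENCODE M21 (GRCm38) overlapped the gene of that name. The deposited read counts cover each transcript's whole genomic span, introns included: 97.3% of isoform sets with 1 span carried a single read number throughout. Coverage averaged over exonic bases (a signal), total exon length and the percent of exonic bases covered at least 1, 20 or 100 times are given by the authors per the file headers. Mitochondrially encoded genes were not analysed here.

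Exonic read equivalents (average coverage times exon length over 150) were computed for the transcript with most reads per symbol, filtered with filterByExpr, scaled by TMM and tested as log2(CPM + 1) by limma's moderated test with a trended variance over all 9 libraries, two-sided, with Benjamini-Hochberg adjustment over 13741 genes and a threshold of 0.05. Exonic reads were 67.74 to 70.6% of span reads, and TMM factors 0.919 to 0.932 under PD-L1 antibody and 1.01 to 1.06 elsewhere. Precision is limited by depth for low genes and by 3 libraries a group, and intervals cover no shared origin of the samples. Transcript positions are 1-based on GRCm38. The exons of the 9 genes overlap no other annotated gene's exons.

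The members and lists were chosen with earlier results of these data known. Named were the 9 members, up to 4 genes per list with the lowest p against the isotype antibody, and the 5 genes most alike to Acod1 and to Cs; other list members named beside their counts (such as Irf1, Rela, Tlr4, Tomm20 and Tfb2m) were added after their values were seen. Some genes that the rule names are not reported here. Motif searches used the RefSeq promoter table (8 of 9 members matched). The procedure was tested on simulated data, drawn with the same fixed spread for all genes and no library standing apart. That test therefore does not cover the split of the untreated libraries. Alternatives were other scalings, pseudocounts, filters and tools (limma-voom, edgeR and DESeq2 on exonic reads, edgeR on deposited read counts), summed coverage, only the groups compared, leaving out each library, and a stricter threshold of 0.01. Tests ran in R 4.3.3 (DESeq2 1.42.0, edgeR 4.0.16, limma 3.58.1). Tables and figures were made in Python 3.11.15 (matplotlib 3.10.9, numpy 2.4.6, pandas 2.3.3).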

Additional observations from a re-analysis of the deposited data

How the results depend on the processing

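No paired analysis was possible because the groups share no replicate numbers. Of 648 alternative values of the 9 genes (24 settings, 3 comparisons), 594 kept direction and call, 30 lost the call, 11 gained one and 13 changed sign. Total-count scaling, which moved the median of all genes by -0.142 against the isotype antibody and -0.123 against untreated cells, called 1565 genes higher and 4143 lower under PD-L1 antibody than under isotype antibody, with 2 of the 9 genes higher; against untreated cells it called 1940 higher. Of the 9 genes, the number lower than under isotype antibody was 1 with no filter, 0 to 3 leaving out 1 library (0 without PD-L1 antibody 2, 3 without untreated 7) and 0 at a threshold of 0.01. That threshold called 3228 genes (1541 lower, 3 of the 9) against the isotype antibody, 3821 (1786 lower) against untreated cells and 0 (0 higher) between the isotype antibody and untreated cells.

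Between the isotype antibody and untreated cells, total-count scaling, edgeR on deposited counts and summed coverage each called 2 genes (1 lower). No filter called 0 higher and 1 lower, DESeq2 13 (8 higher, 5 lower), and limma-voom, edgeR on exonic reads and the fit of only these groups 0 (0 higher). Leaving out 1 library gave 0 to 2295 genes, 0 to 1337 higher and 0 to 958 lower, and 0 to 4 of the 9 (0 to 2 higher, 0 to 2 lower), all at the upper end without untreated 7. edgeR on deposited counts called 4244, 4986 and 2 genes in the 3 comparisons, of which 3857, 4636 and 0 were shared with the 4996, 5831 and 1 reported.

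Every sign change concerned a difference that was not called, and the cause was not tested. Suclg1 under PD-L1 antibody against isotype antibody was at 0.0034 with DESeq2 size factors, 0.0040 with DESeq2, 0.012 without PD-L1 antibody 3, and 0.0053 and 0.0071 without isotype 4 and 5 (-0.025 to 0.012 over the libraries left out). Against untreated cells Suclg1 was at -0.042 with total-count scaling. Between the isotype antibody and untreated cells Acod1 was at -0.034 (edgeR), -0.046 (DESeq2) and -0.21 (without untreated 8). There, without untreated 8, Idh1 was at 0.021, Idh2 at 0.045 and Fh1 at 0.0032, and without untreated 9 Idh1 was at 0.022. Leaving out 1 library gave -0.21 to 0.70 for Acod1, -0.26 to 0.022 for Idh1, -0.14 to 0.045 for Idh2 and -0.31 to 0.0032 for Fh1. Sugct against the isotype antibody was at 0.80 with edgeR on deposited counts. D2hgdh against untreated cells was at -0.12 (total-count), -0.053 (upper-quartile), -0.022 (mean of at least 5 CPM), -0.0030 (summed coverage), -0.023 (without PD-L1 antibody 3) and -0.011 (without untreated 9), with up to 0.080 without PD-L1 antibody 1.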
